A study of Drosophila melanogaster with 8 samples.

Results

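The transcripts described here encode 7 enzymes of sugar and inositol metabolism of Drosophila melanogaster, namely Miox, Galk, UGP, Pgi, Eno, Gpdh1 and Taldo. They were represented by 8 of the 13824 cDNA clones on the array, UGP by 2 clones and every other gene by 1. The genes were chosen with their day-10 ratios known, so their day-10 values and their change between days are given below as a description without a test. The day-14 arrays share no RNA with the day-10 arrays, and their tests are given. The genes were chosen with earlier results of the series known, so the day-14 calls are not independent of that choice.

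Male unmated flies of the wild-type strain Oregon R, 3 to 4 days old at the start, ate food with 8 mg/ml Pentylenetetrazole (PTZ) during 7 days and food with 24 mg/ml Vigabatrin (VGB) during the next 3. PTZ causes seizures by blocking the chloride channels that GABA opens. VGB is given against epilepsy and inhibits the transaminase that breaks GABA down. In the first arm heads of treated flies were taken on day 10 and set against heads of flies kept on normal food (NF) for the same 10 days. In the second arm treated flies went back to NF for 4 days and their heads were set, on day 14, against heads of flies kept on NF throughout. Each arm had 4 dual-channel arrays, and each array set a pool of treated heads against its own pool of control heads, with 4 vials of 30 flies at the start behind a pool. Heads hold brain, eyes, muscle, fat body and antennae together, so fewer cells of a type and less RNA per cell cannot be told apart. Flies given only 1 of the drugs were not analysed here, so a ratio belongs to the whole feeding sequence and not to either drug.

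Sugars enter energy metabolism as hexose phosphates. These are broken down by glycolysis, turned into pentoses by the pentose phosphate pathway, reduced to glycerol phosphate, or activated as UDP-glucose for the storage sugars glycogen and trehalose. Galactose joins this pool through the Leloir pathway, and inositol leaves its own pool by oxidation to glucuronate. In insects the fat body is the main site of trehalose and glycogen synthesis, and glia around the brain take up trehalose from the haemolymph.

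Every value is a log2 ratio of treated over control on 1 array, averaged over the 2 spots of a clone and given relative to the median of all clones on that array. A value of -1 therefore means that the treated share of the transcript was at 0.5 of control, relative to the middle of the array. These array medians lay at -0.48, -0.35, 0.02 and -0.06 on day-10 replicates 1 to 4 and at 0.01, -0.10, 0.08 and 0.24 on day-14 replicates 1 to 4 before centring. Treated RNA carried Cy5 in replicates 1 and 2 of each day and Cy3 in replicates 3 and 4. Which channel is on top of a deposited ratio is not given in the sources used here. It was taken as Cy5 over Cy3 from the channel order of the labels, so every "lower" below is likely and not settled. With Cy3 on top every value would keep its size and take the opposite sign. Before the sign was turned, Miox had -2.03 and -0.59 on day-10 replicates 1 and 2, where treated RNA was in Cy5, and 1.19 and 1.22 on replicates 3 and 4, where it was in Cy3. At day 14 its values before turning were -0.48 and -0.22 in Cy5 and 0.58 and 0.74 in Cy3, so the sign followed the dye on 8 of 8 arrays. Miox was chosen with its day-10 ratios known, so its sign is no check of how the ratio is read. Not every member did so: before turning Galk had -0.02 and -0.07 on day-14 replicates 3 and 4 (treated in Cy3). Pgi had 0.12 on day-14 replicate 1 (treated in Cy5). Between 8419 and 20241 spots had a value per array, and photoreceptor genes, which mark heads, passed the authors' spot filters: 7 of 10 were annotated and 6 of those could be tested.

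**Figure D1:**
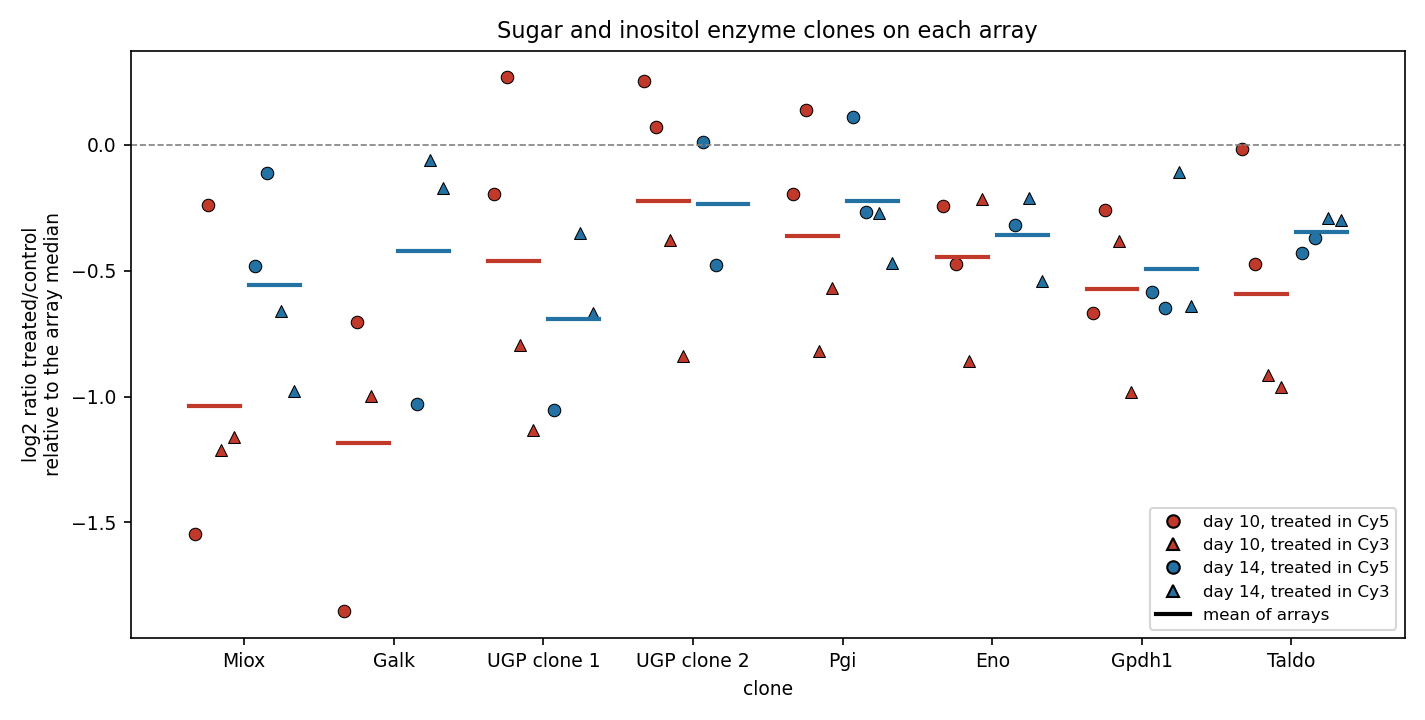
Log2 ratio of treated over control, relative to the array median, for each of the 8 clones (x axis) on each array. Red symbols are day 10 and blue are day 14, circles have treated RNA in Cy5 and triangles in Cy3, and bars are means of the arrays. Miox and Galk reach the lowest day-10 values (-1.54 and -1.85, both on replicate 1), and the Taldo values of day 14 lie closest together.

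Miox encodes myo-inositol oxygenase, which opens the inositol ring to give glucuronate. On day 10 its values were -1.54, -0.24, -1.21 and -1.16 in replicates 1 to 4. All 4 lay below the array median, and replicate 2 was much closer to it than the other 3. The fitted value was -1.04 ± 0.18 (SE, n = 4 arrays), or 0.487 of control. On day 14 its values were -0.48, -0.11, -0.66 and -0.98, again all below the median and again with replicate 2 closest to it. The 2 spots of the clone differed by at most 0.319 on any array. Miox was the one inositol-degrading enzyme in the list, and the other inositol genes tested lay nearer to the array median or above it. CG9391, of the inositol monophosphatase family, had -0.16 ± 0.11 on day 10, and Pis, phosphatidylinositol synthase, had 0.03 ± 0.13. CG17027, of the same monophosphatase family, lay the other way at 0.50 ± 0.20, and none of these 3 passed (limma adjusted p = 0.471, 0.921 and 0.193). CG17027 had 0.28 with the ratios as deposited and 0.06 after centring on neighbouring clones (adjusted p = 0.314 and 0.897).

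Galk encodes galactokinase, which phosphorylates galactose at the entry of the Leloir pathway. It was measured on 3 arrays of each day, with -1.85, -0.705 and -0.997 on day-10 replicates 1 to 3. All 3 lay below the array median, with replicate 1 lowest. The fitted day-10 value was -1.08 ± 0.22, or 0.471 of control. On day 14 it had -1.03 on replicate 2, -0.06 on replicate 3 and -0.17 on replicate 4. The value on replicate 2 is the mean of spots that did not agree, at 0.81 and -3.08 before centring. These spots differed by 3.895, while 4.09% of the clones with both spots on that array differed by more than 1. With the first spot of each clone alone, the fitted day-14 value of Galk changed sign to 0.15 ± 0.28 (adjusted p = 0.843). With such spot pairs left out Galk had too few day-14 arrays to be tested. Galt, the next enzyme of the pathway, had -0.01 ± 0.18 on day 10 and 0.39 ± 0.18 on day 14 (adjusted p = 0.983 and 0.288).

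UGP encodes UTP-glucose pyrophosphorylase, which makes UDP-glucose. Its first clone had -0.19, 0.27, -0.79 and -1.13 on day-10 replicates 1 to 4. It lay above the median on replicate 2 and lowest where Cy3 marked the treated RNA. The fitted day-10 value was -0.46 ± 0.20. On day 14 it had -1.05, -0.35 and -0.67 on replicates 1, 3 and 4, all below the median. With array-median centring UGP was the one member whose fitted value was lower on day 14 (-0.63 ± 0.24) than on day 10. As deposited its fitted values were -0.68 on day 10 and -0.57 on day 14, and after centring on neighbouring clones -0.80 and -0.67. The second clone had 0.25, 0.07, -0.38 and -0.84 on day-10 replicates 1 to 4 and 0.01 and -0.48 on day-14 replicates 1 and 2. It was not tested because it was measured on only 2 day-14 arrays. Both clones had the same order of the Cy5 and Cy3 arrays on day 10, with the Cy3 arrays lower, but the second was centred nearer to 0. Among genes of storage sugars, Glyp, glycogen phosphorylase, had -0.27 ± 0.16 on day 10 and -0.50 ± 0.16 on day 14 (adjusted p = 0.403 and 0.179). Glys, glycogen synthase, had -0.09 ± 0.15 and 0.18 ± 0.15, and Treh, trehalase, had -0.01 ± 0.20 and 0.00 ± 0.20 (lowest adjusted p of the 4 values = 0.591).

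Pgi encodes phosphoglucose isomerase, the step of glycolysis that follows hexokinase. On day 10 it had -0.19, 0.14, -0.82 and -0.57 in replicates 1 to 4, with replicate 2 above the median. Its fitted value of -0.36 ± 0.12, or 0.778 of control, was the closest to 0 among the 7 genes on day 10. On day 14 it had 0.11, -0.27, -0.27 and -0.47, with replicate 1 above the median.

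Eno encodes enolase, which makes phosphoenolpyruvate late in glycolysis. It had -0.24, -0.47, -0.86 and -0.21 on day-10 replicates 1 to 4 and -0.32, -0.21 and -0.54 on day-14 replicates 2 to 4. All 7 values were below the array median. The fitted values were -0.45 ± 0.13 on day 10 and -0.34 ± 0.15 on day 14.

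Gpdh1 encodes the cytosolic glycerol-phosphate dehydrogenase, which feeds both the glycerol phosphate shuttle of flight muscle and the glycerol backbone of lipids. It had -0.67, -0.26, -0.38 and -0.98 on day-10 replicates 1 to 4. On day 14 it had -0.58, -0.65, -0.11 and -0.64, so 3 arrays lay together and replicate 3 was near the median. The fitted values were -0.57 ± 0.14 and -0.49 ± 0.14, the smallest gap between days among the 7. Gpdh2, a second gene of the same enzyme family, had -0.08 ± 0.27 and -0.20 ± 0.27 (adjusted p = 0.904 and 0.742).

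Taldo encodes transaldolase, which links the pentose phosphate pathway back to glycolysis. It had -0.02, -0.48, -0.92 and -0.96 on day-10 replicates 1 to 4, in which replicate 1 was at the array median. Its 2 spots differed by 0.641 on that array. On day 14 the values were -0.43, -0.37, -0.29 and -0.30, with an SD of 0.064, the narrowest of the members. The fitted values were -0.59 ± 0.14 and -0.35 ± 0.14. CG8036, a transketolase gene of the same branch of the pathway, had -0.19 ± 0.13 on day 10 (adjusted p = 0.458). It passed as lower with the ratios as deposited (-0.41, adjusted p = 0.0483) and after centring on neighbouring clones (-0.54, adjusted p = 0.0283). In these settings 13.6% and 1.32% of all clones were called lower on day 10. On its single arrays CG8036 lay above the median on day-10 replicates 1 and 2 (0.45 and 0.37) and below it on replicates 3 and 4 (-0.76 and -0.81).

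On day 10 the fitted values of the 7 genes had a median of -0.57, against 0.01 for all 4563 clones tested. They ordered from Galk and Miox, through Taldo, Gpdh1, UGP and Eno, to Pgi. Neighbours in this order differed by less than their SE, except Miox (-1.04) and Taldo (-0.59). On every measured day-10 array 5 of the 7 were below the array median, as were 14.6% of all clones. This count restates how the genes came to be chosen. Over all clones 100 were lower and 38 higher with centring, and 620 were lower and 18 higher as deposited. Uncentred, the fitted values of all clones had a median of -0.21 and those of the members -0.79. The members' array medians were -0.24 and -0.26 on day-10 replicates 1 and 2 (treated in Cy5) and -0.86 and -0.97 on replicates 3 and 4 (treated in Cy3). As deposited the same medians were -0.73, -0.61, -0.84 and -1.03. The gap between dye orientations was therefore wider after centring. On day 14 the members' centred medians were -0.48 and -0.35 in Cy5 and -0.27 and -0.54 in Cy3, without such a gap. The dye term of the fit is common to both days, so it cannot fully take up a gap that differs between them. On replicate 2, UGP and Pgi lay above the median, and on the other 3 day-10 arrays the representative clone of every measured member lay below it.

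**Figure D2:**
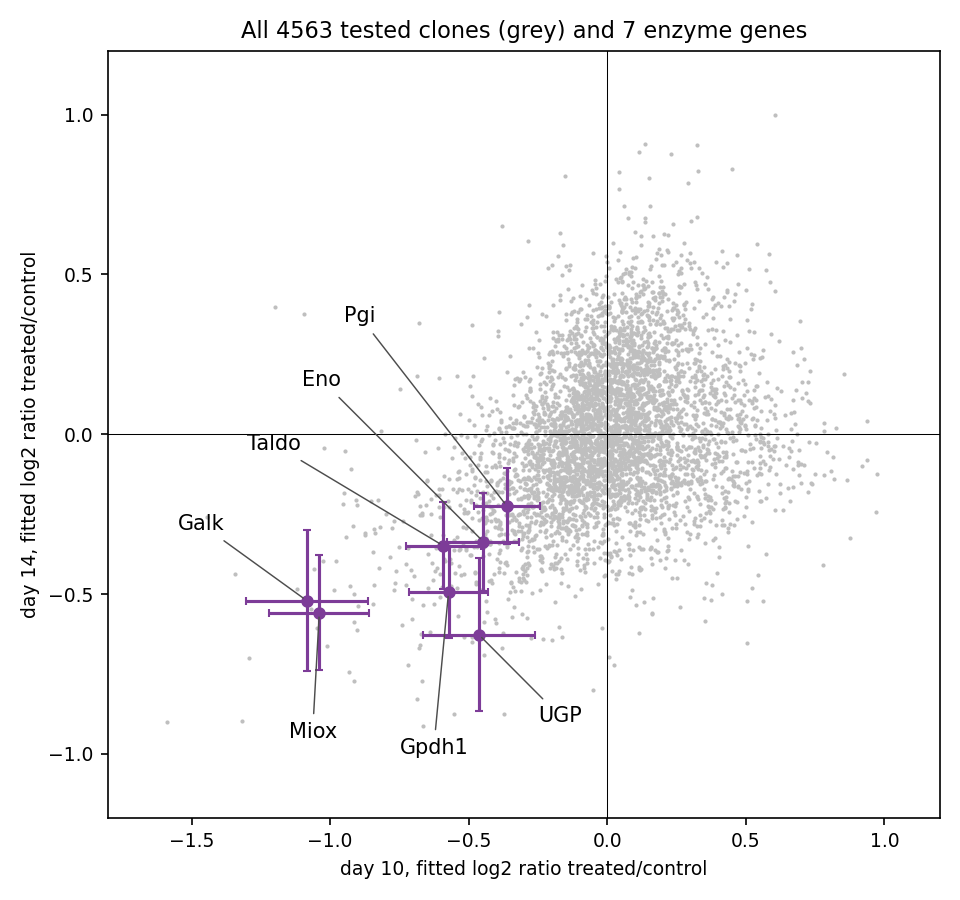
Fitted log2 ratio of treated over control at day 10 (x axis) and day 14 (y axis), relative to the array median. Grey points are all 4563 clones tested except 1 outside the range shown, and purple points with SE bars are the 7 enzyme genes, which all lie in the quadrant below 0 on both days.

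On day 14, after 4 days on normal food, all 7 genes still had fitted values below 0, with a median of -0.49, against -0.01 for all clones tested. UGP was lowest at -0.63, followed by Miox (-0.56), Galk (-0.52), Gpdh1 (-0.49), Taldo (-0.35), Eno (-0.34) and Pgi (-0.23). Each value in this order lay within the 95% confidence interval of its neighbours. The places of UGP and Galk rested on 1 array each, since UGP had -0.0081 without day-14 replicate 1 and Galk had -0.26 without day-14 replicate 2. The second UGP clone averaged -0.23 on its 2 day-14 arrays. In the fit of all 8 arrays 0 of the 7 passed (limma adjusted p = 0.148 for Gpdh1 to 0.338 for Pgi), and 0% of the 4563 clones did. At an unadjusted p under 0.05, 5 of the 7 were lower (Gpdh1, Miox, UGP, Taldo and Galk), where 8.92% of all clones were lower. The 95% confidence interval ran from -0.96 to -0.16 for Miox and from -0.81 to -0.18 for Gpdh1, and for Pgi it ran from -0.49 to 0.04. On every measured day-14 array 6 of the 7 genes were below the array median, as were 16.5% of all clones. On every measured array of both days 5 of the 7 were, namely Miox, Galk, Eno, Gpdh1 and Taldo, as were 4.97% of all clones. Galk was measured on 3 arrays of each day, and as deposited it lay above 0 on day-14 replicates 3 and 4 (0.02 and 0.07). Eno had no value on day-14 replicate 1. These counts are not independent of how the genes were chosen.

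The fit of the 4 day-14 arrays alone, which uses no day-10 value, gave narrower errors and other calls. In it 5 of the 7 fell, where 5.98% of all clones were called lower. The genes were chosen with earlier results of the series known, so this count is not independent of that choice. UGP fell by 0.78 ± 0.12 (n = 3 arrays, adjusted p = 0.0161) and Miox fell by 0.56 ± 0.10 (n = 4, adjusted p = 0.0194). Galk fell by 0.57 ± 0.11 (n = 3, with the discordant replicate 2 among them, adjusted p = 0.0214), Gpdh1 fell by 0.49 ± 0.10 (n = 4, adjusted p = 0.0229) and Taldo fell by 0.35 ± 0.08 (n = 4, adjusted p = 0.0315). Eno had -0.35 ± 0.12 and Pgi had -0.23 ± 0.10, and neither passed (adjusted p = 0.0884 and 0.143). Galk, UGP and Eno had a single day-14 array with treated RNA in Cy5, which the dye term fits exactly, so their residual spread came from replicates 3 and 4 alone. The median residual SD of all clones was 0.215 on day 10 and 0.152 on day 14, and for Miox it was 0.653 on day 10 and 0.243 on day 14. The calls of the day-14 fit rested on replicates 3 and 4 of that day: without either one 0 members passed, with 4 testable, where 0.756% of all clones were lower without replicate 3 and 0.227% without replicate 4. Without replicate 1 all 6 testable members passed, where 12.2% of all clones were lower, and without replicate 2 4 of 5 did, where 15.4% were. After local centring that fit called 0 of 6 members, with a lowest adjusted p of 0.0535, and 0.329% of all clones.

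**Figure D3:**
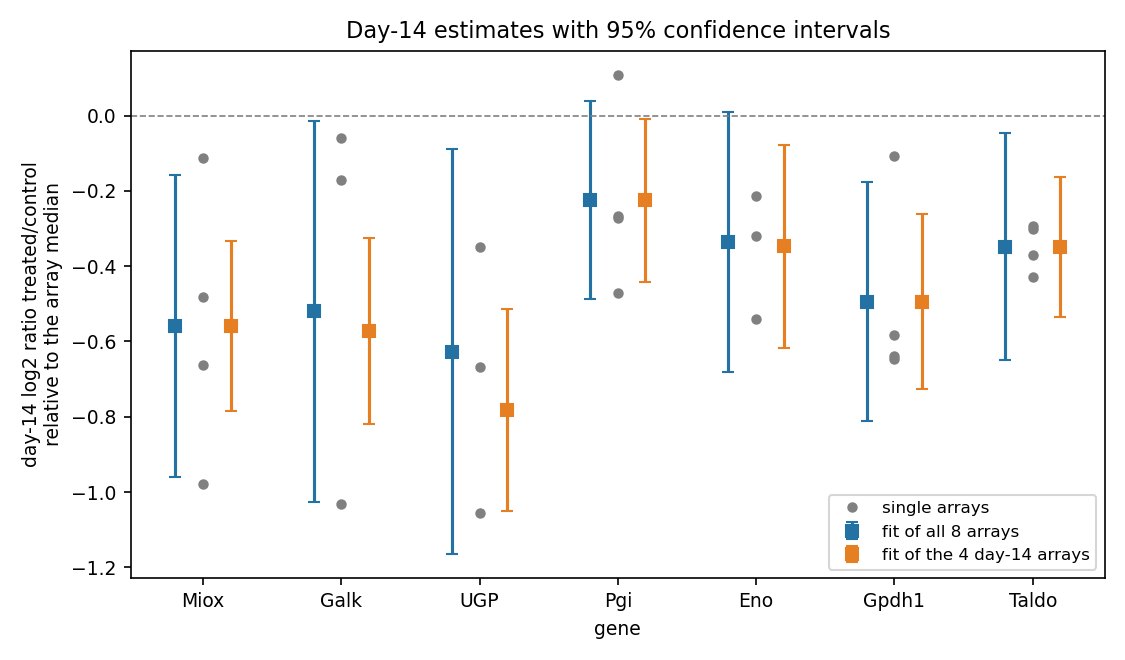
Day-14 log2 ratio of treated over control, relative to the array median, for the 7 genes. Grey points are single arrays, blue squares the fit of all 8 arrays and orange squares the fit of the 4 day-14 arrays alone, each with its 95% confidence interval, which is narrower in the fit of day 14 alone for every gene.

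Between days, the fitted value was lower on day 10 than on day 14 by 0.56 ± 0.32 for Galk, 0.48 ± 0.25 for Miox, 0.24 ± 0.19 for Taldo, 0.14 ± 0.17 for Pgi, 0.11 ± 0.20 for Eno and 0.08 ± 0.20 for Gpdh1 (SE). For UGP it was higher on day 10 by 0.16 ± 0.31, but as deposited and after local centring UGP too was lower on day 10. Over all clones 0 of 4563 differed between days at an adjusted p under 0.05 (limma) and 10.5% did at an unadjusted p under 0.05, and the members' differences are given without a test. The 2 genes furthest below 0 on day 10, Galk and Miox, had the widest gaps between days, while Gpdh1, Eno and Pgi had gaps smaller than their SE. This order is not independent of the choice of the genes with day-10 ratios known. Without day-10 replicate 1 the widest gap was that of Taldo (-0.76 on day 10 and -0.35 on day 14).

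Across the 8 arrays the members varied together only in part. Over the 21 pairs of genes, Pearson's r ranged from -0.26 (Eno and Gpdh1, 7 arrays) to 0.60 (UGP and Gpdh1, 7 arrays) with a median of 0.28. These points share arrays and dyes, and r is a description. The clone whose profile was most like that of Pgi, of 2104 that could be compared (1231 for UGP and 1310 for Eno), was PCB, pyruvate carboxylase, with r = 0.95 over 8 arrays. PCB itself had a fitted value of -0.17 ± 0.12 on day 10. Taldo was most like Pop2 (r = 0.96, 7 arrays), Eno most like Dif (r = 0.92, 7 arrays), UGP most like Zyx (r = 0.91, 7 arrays), Miox most like Rrp6 (r = 0.90, 8 arrays) and Gpdh1 most like RpS15Ab (r = 0.86, 8 arrays). The next most similar were qkr58E-2 and Csas for Miox, CG4757 and CG3961 for UGP, and xmas and Tsf2 for Pgi. For Eno they were CG5708 and sn, for Gpdh1 sano and CG4287, and for Taldo CG3544 and TTLL15 (r between 0.84 and 0.94 for all 12). All were picked as the highest of 1231 to 2104 values of r over 7 or 8 arrays. Whether such values exceed those that chance gives was not tested. No member was among the 3 closest clones of another member, and Galk, with 6 arrays, had too few for this comparison.

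Of 60 further genes in the 7 lists, 35 were annotated on the array and 22 could be tested. The 25 without an annotated clone, and the annotated genes with too few measured arrays, were not analysed here. On day 10, 1 of the 22 fell and 0 rose, where 3.02% of all clones passed in either direction. At an unadjusted p under 0.05, 1 was lower and 2 were higher (Pfk and CG17027), where 10.7% and 10.2% of all clones were. Their median was -0.08 on day 10 and 0.01 on day 14, against -0.57 and -0.49 for the 7 members, whose day-10 median follows from their choice.

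The gene that fell was Tret1-1, a trehalose transporter. It had -0.80, -0.86, -0.57 and -0.59 on day-10 replicates 1 to 4 and -0.81, -0.50, -0.53 and -0.47 on day 14. All 8 arrays lay well below the median and the days overlapped. The fitted values were -0.71 ± 0.10 (adjusted p = 0.0105) and -0.58 ± 0.10 (adjusted p = 0.13), and in the fit of day 14 alone it fell by 0.58 ± 0.09 (adjusted p = 0.0144). Without day-10 replicate 1, or with the day-10 arrays fitted alone, Tret1-1 did not pass on day 10. In these fits 3 and 2 of all 4563 clones were called lower on day 10, and 0 higher. A second Tret1-1 clone, with values on 3 day-10 and 2 day-14 arrays, was not tested. The other tested sugar transporter gene, sut2, had 0.23 ± 0.13 on day 10 (adjusted p = 0.391).

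Of 10 further glycolysis and gluconeogenesis genes tested, 0 passed on either day in the fit of all 8 arrays, with a median of -0.11 on day 10 and 0.03 on day 14. The lowest on day 10 was Gapdh1, a glyceraldehyde-phosphate dehydrogenase gene, at -0.28 ± 0.17, and a second clone of it had -0.37 ± 0.11 (adjusted p = 0.402 and 0.0934). The highest was Pfk, phosphofructokinase, at 0.35 ± 0.13 (adjusted p = 0.188). As deposited it had 0.14, and after local centring 0.28 (adjusted p = 0.539 and 0.394). Pfk acts on the product of Pgi and had 0.56, 0.61 and 0.09 on day-10 replicates 1 to 3, all above the array median. In the pentose phosphate list Rpe, the ribulose-phosphate epimerase gene, had -0.14 ± 0.12 (adjusted p = 0.575). On day 14, 0 of the 22 passed in the fit of all 8 arrays, and 3 were lower and 0 higher at an unadjusted p under 0.05, where 8.92% and 10.4% of all clones were. In the fit of day 14 alone Glyp fell by 0.55 ± 0.13 (adjusted p = 0.0358) and Pglym87, a phosphoglycerate mutase gene, rose by 0.51 ± 0.11 (adjusted p = 0.0283), both on 3 arrays. For Pglym87 these were 1.13, -0.23 and -0.004 on day-14 replicates 2 to 4, so replicate 2 alone lay above the median. With Tret1-1 they made 2 of 22 lower and 1 higher, where 5.98% and 5.65% of all clones were.

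**Figure D4:**
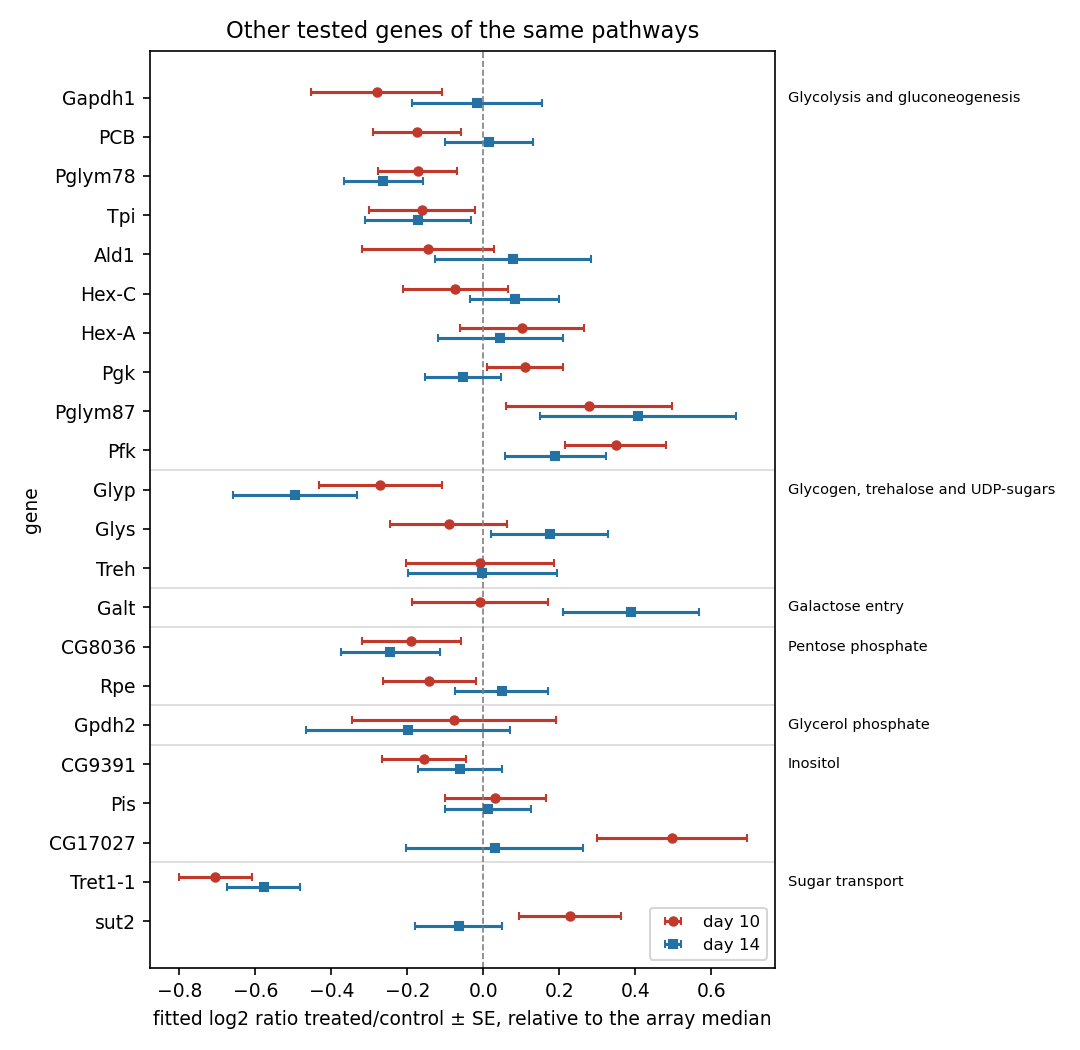
Fitted log2 ratio of treated over control with SE, relative to the array median, for the 22 other tested genes of the same pathways on day 10 (red circles) and day 14 (blue squares), grouped by list. Tret1-1 lies lowest on both days, and Pfk, Pglym87 and CG17027 lie above 0.

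Genes that mark other tissues of the head moved to different extents. Of 11 fat body genes 10 were annotated and 7 tested. Their median was -0.68 on day 10, between -1.11 and 0.22 on single arrays, and -0.27 on day 14, between -0.64 and -0.05, and 3 of 7 fell on day 10 (Lsp2, Obp99b and Adh), where 2.19% of all clones did. As deposited 4 of 7 fell on day 10, where 13.6% of all clones did. In the fit of day 14 alone 3 fat body genes fell and 1 rose, where 5.98% and 5.65% of all clones did. The gene that rose was apolpp, which encodes the fat body's lipid carrier (0.42, adjusted p = 0.0419). Its representative clone had 1.425, -0.63 and -0.525 on day-14 replicates 1, 3 and 4, so replicate 1 alone lay above the median. That was its only day-14 array with treated RNA in Cy5, which the dye term fits exactly. The clones of apolpp did not agree. In the fit of all arrays the representative clone had -0.68 on day 10 (adjusted p = 0.0563) and 0.35 on day 14. The second clone had -1.07 (adjusted p = 0.0116) and -0.55. Yp2, a yolk protein gene, had 0.69 on day 10 (adjusted p = 0.15). Of 8 glial genes 6 were annotated and 4 tested, with medians of -0.48 and -0.28 on days 10 and 14. On day 10 Tret1-1 was the 1 of these 4 that fell with centring, where 2.19% of all clones did. All 4 were lower at an unadjusted p under 0.05, where 10.7% of all clones were. As deposited all 4 glial genes fell, where 13.6% of all clones did. Their array medians lay between -0.59 and -0.50 on day 10 and between -0.38 and -0.01 on day 14. Muscle genes (5 tested), photoreceptor genes (6 tested) and neuronal genes (2 tested) had day-10 medians of -0.11, -0.07 and 0.19 and day-14 medians of 0.01, -0.07 and -0.09, and 0 of them passed with centring. As deposited 1 muscle gene, Act79B, fell on day 10 (-0.54, adjusted p = 0.0101), where 13.6% of all clones did. The medians of the fat body and glial lists lay below the array median on both days, as did those of the 7 enzyme genes. The photoreceptor medians did so too, at -0.07 on both days. The part of these tissues in the ratios of the enzyme genes was not tested. Single genes of the fat body and glial lists lay above the array median. On each day 6 of 7 fat body genes were below 0. Of the glial genes 4 of 4 were below 0 on day 10 and 3 of 4 on day 14.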

How the data were processed

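Heads of treated and control flies were compared on 8 dual-channel cDNA arrays, 4 per day. The deposited values are log2 ratios per spot. Per the submitters' design text, the authors quantified scans with GenePix Pro 6.0, applied a ratio-based normalization in Acuity 4.0 and kept spots of sufficient intensity, signal-to-noise ratio (at least 3) and uniformity. Scanner intensities were not used here, so signal over background beyond those filters is unknown, and the number of arrays limits the precision.

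Neighbouring spots carried the same annotation in 7609 of 7609 annotated pairs and were averaged as 1 clone. Symbols were updated by gene ID through RefSeq (7447 of 7558 clones with 1 gene). Ratios were turned to treated over control and centred on each array's median. limma 3.58.1 in R 4.3.3 fitted a coefficient per day and a dye term common to both days. It was run on the 4563 clones with values on at least 3 arrays of each day. Benjamini-Hochberg adjustment was over all of them at 0.05. The uncentred ratios, local centring (neighbours within 2 rows and 3 clones, at least 5 measured), print-block centring, fits of each day alone and the other alternatives are compared in the closing section. Local centring left 4255 clones. The procedure was tested on simulated data.

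Named were all member clones, list genes that passed on either day, otherwise the lowest and highest of each list on day 10, and the 3 clones most like each member. Glys, Pis, Pglym87, Yp2, apolpp and Act79B were named after their values were seen. A gene with several clones was represented by the one with most measured arrays. Members and lists were chosen with earlier results of these data known.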

Additional observations from a re-analysis of the deposited data

Results flagged for a closer look

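One value of the 7 enzyme genes stood apart from the other 3 of its group. Gpdh1 on day-14 replicate 3 was at -0.11, while the other 3 arrays of that day lay between -0.65 and -0.58. Without that array the fitted day-14 value of Gpdh1 was -0.65. In 11 groups of 4 arrays tested in this way 1 such value was found, and chance gives about 1 in 20.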

How the results depend on the processing

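Fitted with all 8 arrays, 0 member clones passed on day 14 under any scaling, filter, spot choice or variance setting tried, with 1 replicate left out, or with replicate block. In each of these fits 0 of all clones tested passed on day 14, so the 0 is not particular to the members. Replicate numbers as a block gave 0 members on day 14, 1 of 20 testable pathway genes on day 10, and 47 lower and 7 higher clones in all on day 10, against 100 and 38 without it. The numbers were not taken as pairs, since deviations of same-numbered arrays of the days correlated at 0.0997, 0.265, 0.157 and 0.252 (numbers 1 to 4), not every array correlated best with its own number, and numbers share a dye orientation. Each day fitted alone gave 5 members and 3 pathway genes on day 14, and 0 pathway genes on day 10. Over all clones it called 273 lower and 258 higher on day 14, and 2 lower and 0 higher on day 10. That fit of day 14, with a further choice made after seeing this, gave 4 members and 3 pathway genes as deposited, 6 and 3 after print-block centring, 4 and 2 with discordant spots left out, 0 and 2 with ratios read as already turned, and 0 and 0 after local centring. All clones called lower in these fits were 3.86%, 7.82%, 7.02%, 1.49% and 0.329%, in that order. With single replicates left out, members called ranged from 0 to 6 and pathway genes from 0 to 3. Pathway genes on day 10 numbered 2 as deposited, 2 after local centring, 0 with ratios read as already turned and 0 to 1 with a replicate left out (0 without day-10 replicate 1). Leaving out replicates moved the members' median between -0.69 and -0.50 on day 10 and between -0.60 and -0.29 on day 14.

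Directions rest on how the ratio is read. With Cy3 over Cy5 every sign turns at the same size. Read as already turned, the members' medians were 0.15 and -0.052. On day 10 Miox had 0.15, UGP 0.50, Pgi 0.33, Eno 0.089, Gpdh1 0.11 and Taldo 0.35, while Galk stayed below 0 at -0.24. On day 14 Miox had 0.26, Pgi 0.15 and Eno 0.0087. With the first spot alone Galk had 0.15 on day 14. Without day-14 replicate 1 UGP had -0.0081 on day 14, and without day-14 replicate 2 Galk had -0.26. Over all clones, 100 were called lower and 38 higher on day 10, against 620 and 18 as deposited, 56 and 4 after local centring, and 3 and 0 without day-10 replicate 1. The causes were not tested.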
